A study of Homo sapiens with 4 samples.

Results

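Interferon-stimulated genes were followed in A549, a human line derived from a lung adenocarcinoma, cultured with or without simulated respiratory motion (RM). The set held 9 genes, ISG15, IFIT1, IFIT2, IFIT3, MX1, OAS1, OAS3, IFI6 and IFIH1, chosen by gene symbol from a table of 30843 genes, and all 9 passed the filter on low values that 17632 genes passed. The cells were labelled wild type and stood on plastic in 2D culture. In the RM+ group (2 samples), the air in the sealed chamber cycled between a slight negative pressure and atmospheric pressure. In the RM- group (2 samples), the plate was not connected to the pressure unit. RNA was taken from both groups on day 4, enriched for poly(A) RNA and sequenced. By the labels, the samples numbered 1 in each group form batch 1 and those numbered 2 form batch 2. Key 2D experiments of the study were repeated independently, but whether the replicates sequenced here were separate cultures is not stated, and the p-values therefore reflect only the spread among these samples, part or all of which may be technical. The model is limited to 1 cell line on a rigid substrate, and in bulk RNA a change in the number of cells that express a gene cannot be told apart from a change in the RNA per cell.

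Interferons of type I and type III are secreted proteins that bind receptors on the same or neighbouring cells. The receptors act through the kinases JAK1 and TYK2 on transcription factors that form the complex ISGF3, and ISGF3 binds a DNA element called the interferon-stimulated response element (ISRE) in front of its target genes. The products of these targets sense, mark or block viral RNA and protein. In airway and alveolar epithelium the same genes are known as a first line of defence against respiratory viruses.

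The promoter sequences are shown here because the ISRE is what most of the 9 genes are known to have in common. RefSeq windows of GRCh38.p14, from 250 bases before each annotated start to 50 bases after it, were searched on both strands for the ISRE core GAAANNGAAA, with overlapping matches allowed. In the lines below, capitals mark the core, read along the gene, and a match on the other strand appears as its reverse complement. Positions are counted with the first transcribed base as 0. The 5 genes shown are those with the largest log2 fold changes among the members that had an entry, plus IFIT1, which lies beside IFIT3.
ISG15, chr1:1013364-1013419, plus strand, from -133 to -78: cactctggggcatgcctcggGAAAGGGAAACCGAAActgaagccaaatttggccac
MX1, first annotated start, chr21:41420559-41420588, plus strand, from 1 to 30: gagcagaaatGAAACCGAAActgaattgtc
IFI6, chr1:27672256-27672368, minus strand, from -176 to -64: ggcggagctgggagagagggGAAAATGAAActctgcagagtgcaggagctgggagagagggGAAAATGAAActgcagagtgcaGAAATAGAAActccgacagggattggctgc
IFIT3, first annotated start, chr10:89327821-89327904, plus strand, from -176 to -93: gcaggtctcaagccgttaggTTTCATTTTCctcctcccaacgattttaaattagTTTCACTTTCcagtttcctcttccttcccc
IFIT3, second annotated start, chr10:89332415-89332507, plus strand, from -114 to -22: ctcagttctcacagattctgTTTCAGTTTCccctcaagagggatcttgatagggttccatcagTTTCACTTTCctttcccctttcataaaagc
IFIT1, chr10:89392487-89392549, plus strand, from -136 to -74: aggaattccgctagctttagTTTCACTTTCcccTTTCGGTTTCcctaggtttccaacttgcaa

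A promoter entry was found for 8 of the 9 members, and 7 of these 8 (87.5%) held the core in at least 1 window. Of the other interferon pathway genes listed, 37 of 81 with an entry held it (45.7%). Over all genes of the promoter table the share was 1195 of 27305 (4.38%), and over all single windows it was 3.57%. ISG15 held 2 overlapping copies that share bases, so its capitals form 1 run. IFI6 and IFIH1 held 3 copies each, OAS3 and IFIT1 held 2 each, and MX1 held 1 copy at each of 2 of its 3 annotated starts. The window of OAS1 held none, and IFIT2 had no entry. A match says only that these letters are there.

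**Figure D1:**
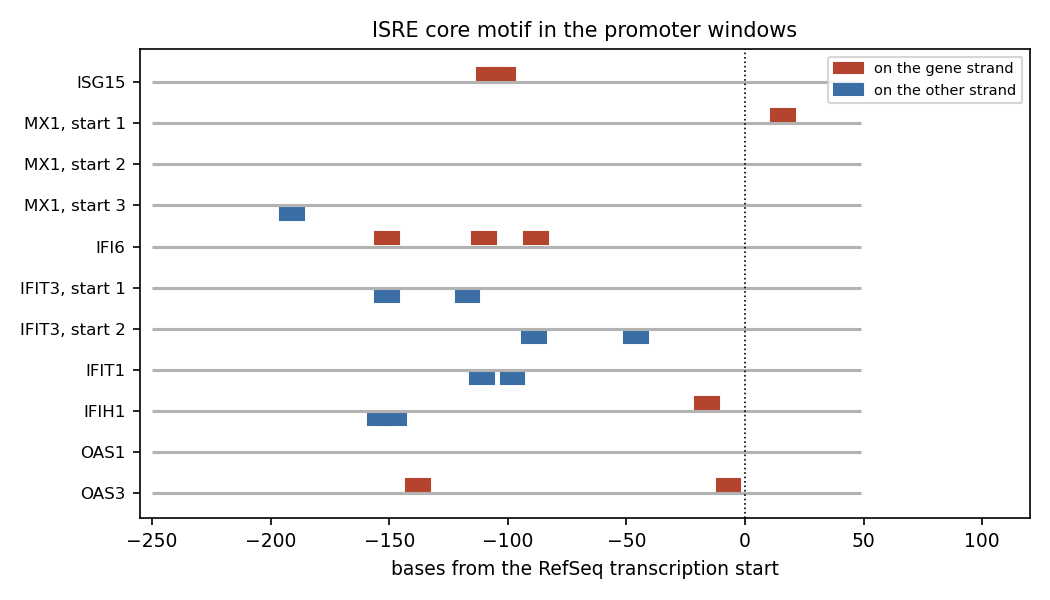
Positions of the ISRE core in the promoter windows, in bases from the RefSeq transcription start on the x axis, with 1 line per annotated start. Red boxes lie on the strand of the gene and blue boxes on the other strand; most lie within 200 bases before the start, MX1 start 1 has its box after the start, and MX1 start 2 and OAS1 have none.

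The 4 libraries held 18754356 to 20412283 reads assigned to genes. The deposited values are reads divided by 1 size factor per sample, called normalised counts here, and a single read was worth 0.956 to 1.02 normalised counts. Epithelial markers (EPCAM, KRT8, KRT18, KRT19 and CDH1) summed to 89710 to 98700 in the 4 samples, mostly from KRT8 and KRT18. Both RM+ values lay above both RM- values for KRT8 and KRT19, and below them for KRT18 and CDH1. The smallest adjusted p in limma was that of KRT19 (0.0574). EPCAM had 45.4 to 67.9 normalised counts, and its groups overlapped. Of 4 alveolar type 2 markers, the surfactant genes SFTPB and SFTPC had 0 to 2.87 normalised counts and SFTPD 4.78 to 16.3, and ABCA3, a lipid transporter, had 1578 and 1552 in RM+ cells, against 1416 and 1420 in RM- cells. Among leukocyte markers, PTPRC had 0 to 2.87 and LYZ 1.01 to 5.05, and CD14 had 209 and 231 in RM+ cells, against 206 and 181 in RM- cells. Of 4 plasmacytoid dendritic cell markers listed, CLEC4C and LILRA4 were not in the table. The 2 that were, IL3RA and TCF4, were higher in the RM+ samples. Their sums were 200.2 and 177 in RM+ cells, against 146 and 155 in RM- cells. Neither passed in limma (adjusted p = 0.317 for IL3RA and 0.618 for TCF4). The part of these markers in the results below was not tested. The sum was 142 to 162 for 4 fibroblast markers, mostly from COL1A1, and 3.03 to 22.4 for 4 endothelial markers. Across the table, limma on log2(normalised count + 1) called 398 of 17632 genes at an adjusted p under 0.05 (Benjamini-Hochberg), of which 258 were higher and 140 lower in RM+ cells. The calls over all genes made up 2.26% in either direction, 1.46% in the higher direction and 0.794% in the lower direction.

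Of the 9 interferon-stimulated genes, 8 had a positive log2 fold change (RM+ over RM-), and 1, IFIT3, passed the adjusted threshold. None was called lower by limma, by edgeR or by DESeq2, and none of the 9 had an unadjusted p under 0.05 in the lower direction in limma. DESeq2 gave no adjusted p for ISG15, IFIT2 and MX1. The median log2 fold change of the 9 was 0.69, with 0.51 in batch 1 and 0.54 in batch 2, against -0.003 over all tested genes. An unadjusted p under 0.05 with a higher level was found for 5 members, namely ISG15, MX1, IFI6, IFIT2 and IFIT3, where 7.68% of all tested genes met the same rule. With a log2 fold change above 1 also required, 2 members remained, ISG15 and MX1, where 0.749% of all tested genes met it. In 8 members both RM+ values lay above both RM- values, as they did in 22.2% of all tested genes. A fit with the replicate block, which uses the batch in the labels, called the same 5 members higher at an adjusted p under 0.05, where 5.1% of all tested genes were called higher. With 2 samples against 2, the smallest two-sided p that an exact permutation test can reach for a single gene is 0.333, and the p-values for single genes therefore come from the fit over all genes.

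**Figure D2:**
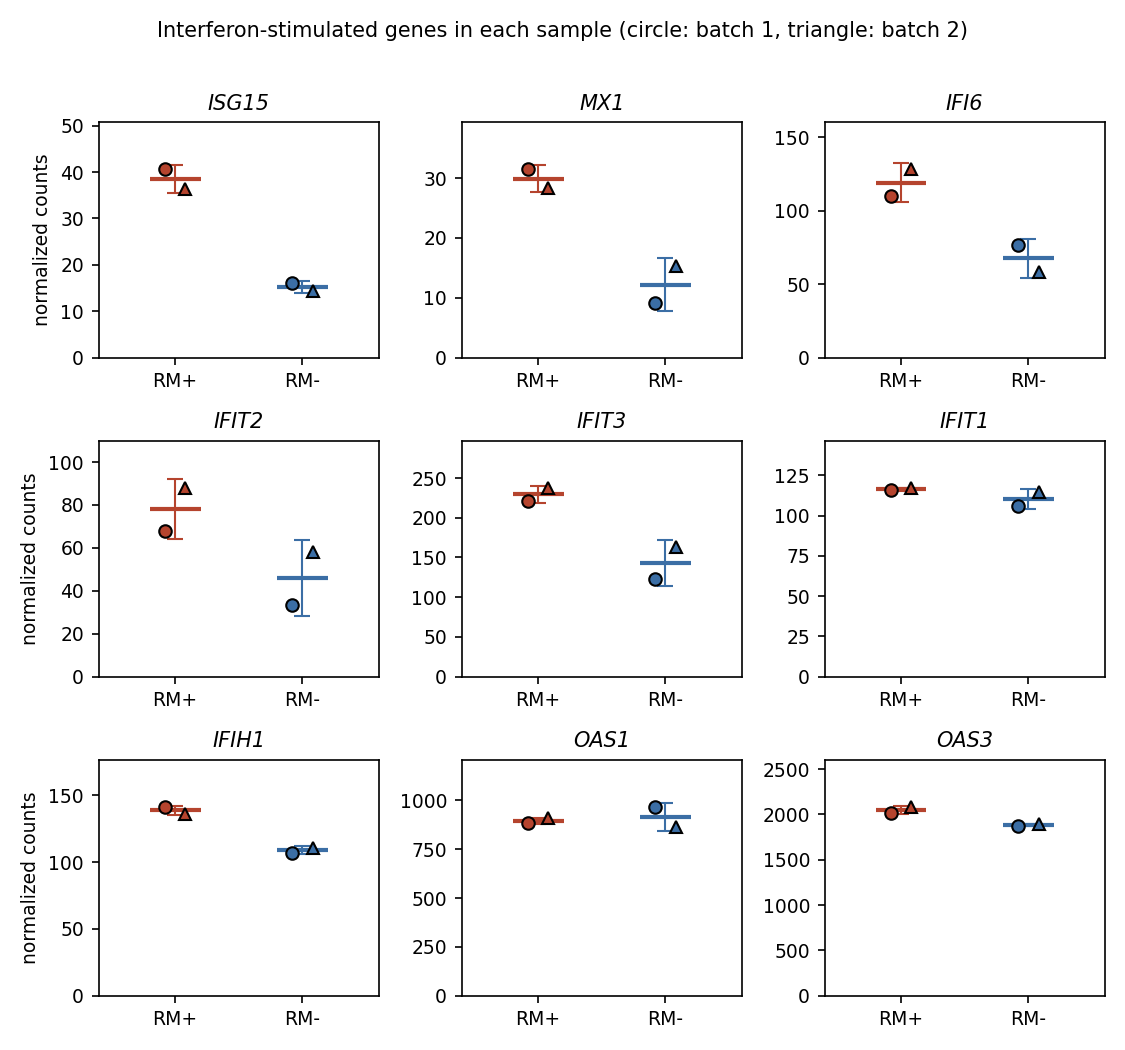
Normalised counts of the 9 interferon-stimulated genes in each sample (y axis, from 0, with its own scale for each gene), with the RM+ group on the left and the RM- group on the right. Circles are batch 1, triangles batch 2, and bars the mean ± SD (n = 2); the groups overlap only for OAS1.

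ISG15 encodes a small ubiquitin-like protein that is attached to other proteins and also secreted. It lies at chr1:1001138-1014540 in the table. ISG15 had 40.6 and 36.3 normalised counts in RM+ cells, against 16.1 and 14.3 in RM- cells. Both RM+ samples were above both RM- samples, and the values within a group were close. The means were 38.5 ± 3.04 in RM+ cells and 15.2 ± 1.27 in RM- cells (SD, n = 2 each). The log2 fold change was 1.28 (SE 0.35, 95% confidence interval 0.53 to 2.03), the same to 2 decimals in each batch. In limma the adjusted p was 0.0745. It was 0.0117 with the replicate block and 0.0395 with at least 10 normalised counts required in every sample. ISG15 did not pass in edgeR (adjusted p = 0.0892), with TMM scaling (limma, 0.0867) or with no filter (limma, 0.432). With each sample left out its log2 fold change was 1.20 to 1.36. These levels rest on 76 reads in RM+ cells and 31 reads in RM- cells, and the ratio of 2.53 had an exact counting interval of 1.65 to 3.97. Such intervals cover counting error only.

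MX1, a GTPase of the dynamin family that blocks influenza and other viruses, had the lowest level per length of the 9 genes. It lies at chr21:41420020-41470071. MX1 had 31.5 and 28.3 normalised counts in RM+ cells, against 9.08 and 15.3 in RM- cells. The groups did not overlap, and RM- replicate 1 was the lowest sample. The log2 fold change was 1.27 (SE 0.41, 95% confidence interval 0.40 to 2.14), with 1.69 in batch 1 and 0.85 in batch 2. The adjusted p in limma was 0.146, and 0.0332 with the replicate block. With 59 reads in RM+ cells and 25 in RM- cells, the ratio of 2.43 had a counting interval of 1.5 to 4.06.

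IFI6, a small membrane protein that limits virus replication at the endoplasmic reticulum and protects cells from apoptosis, lies at chr1:27666064-27672212. IFI6 had 109.7 and 128 normalised counts in RM+ cells, against 76.7 and 58.3 in RM- cells. The groups did not overlap, and the gap was wider in batch 2. The log2 fold change was 0.82 (SE 0.21, 95% confidence interval 0.36 to 1.27), with 0.51 in batch 1 and 1.12 in batch 2. The adjusted p in limma was 0.0574, and 0.00225 with the replicate block. IFI6 did not pass in edgeR (adjusted p = 0.0705) or in DESeq2 (adjusted p = 0.193). Its log2 fold change depended on the sample left out. It was 0.93 without RM+ replicate 1 and 1.01 without RM- replicate 1. Without RM+ replicate 2 it was 0.71, and without RM- replicate 2 it was 0.62.

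The IFIT proteins bind viral RNA that lacks the marks of host mRNA and block its translation, and IFIT3 stabilises IFIT1 on such RNA. IFIT1, IFIT2 and IFIT3 lie in a cluster on chromosome 10 together with IFIT5, which was tested among the other pathway genes. IFIT3 (chr10:89327307-89377473) had 222 and 237 normalised counts in RM+ cells, against 123 and 164 in RM- cells. IFIT3 rose by 0.69 on the log2 scale (SE 0.17, 95% confidence interval 0.34 to 1.04), a 1.6-fold difference of the means, with an adjusted p of 0.0386 in limma. The rise was 0.84 in batch 1 and 0.53 in batch 2. The call was near the threshold. It was lost in edgeR's quasi-likelihood test (adjusted p = 0.0588), in DESeq2 (adjusted p = 0.102), without RM+ replicate 2 (limma, adjusted p = 0.0917) and without RM- replicate 1 (limma, adjusted p = 0.161), and over all alternatives the adjusted p ran from 0.000224 to 0.475.

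IFIT2 (chr10:89283694-89309271) had 68.1 and 87.8 normalised counts in RM+ cells, against 33.3 and 58.3 in RM- cells. The groups did not overlap, but both spreads were wide, and in each group replicate 2 was the higher. The log2 fold change of IFIT2 was 0.80 (SE 0.28, 95% confidence interval 0.20 to 1.39), with an adjusted p of 0.184 in limma and 0.0227 with the replicate block. IFIT2 depended on single RM- samples, with a log2 fold change of 0.40 without RM- replicate 1 and 1.19 without RM- replicate 2. IFIT1 (chr10:89392546-89406487) had similar values in both groups, with 115.8 and 117.1 normalised counts in RM+ cells and 105.9 and 114.7 in RM- cells. Its log2 fold change was 0.08 (SE 0.18, 95% confidence interval -0.31 to 0.46, limma adjusted p = 0.907). The interval includes small changes in either direction, and it overlaps the intervals of IFIT2 and IFIT3. The difference between IFIT1 and those genes was not tested. IFIT5 (chr10:89414568-89421605), named after its values were seen, had 502 and 583 normalised counts in RM+ cells, against 514.5 and 537 in RM- cells, and its groups overlapped (log2 fold change 0.04, SE 0.11, 95% confidence interval -0.19 to 0.27, limma adjusted p = 0.926).

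All 3 IFIT genes lie, in the coordinates of the table, within the span of LIPA (chr10:89213569-89414557), which encodes lysosomal acid lipase and is on the opposite strand. LIPA had 2764 and 3055 normalised counts in RM+ cells, against 2315 and 2428 in RM- cells, with a log2 fold change of 0.29 (SE 0.09, limma adjusted p = 0.0958, and 0.000575 with the replicate block). The libraries were made with a kit that marks the strand, but the sources used here do not say whether the counting took it into account. In the GENCODE 29 gene models, exons of IFIT1 and IFIT3 share 0 bases with exons of any other gene, and IFIT2 shares 65 bases with LIPA (1.58% of its exon length) and 356 bases (8.68%) with a gene on its own strand. ISG15 shares 3.83% of its exon length with a gene on the opposite strand, MX1 2.74% and OAS1 1.86%, and OAS3, IFI6 and IFIH1 share 0 bases. The models behind the table differ in part, since IFIT3 spans more of the chromosome there. The part of LIPA reads in the IFIT values was not tested.

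**Figure D3:**
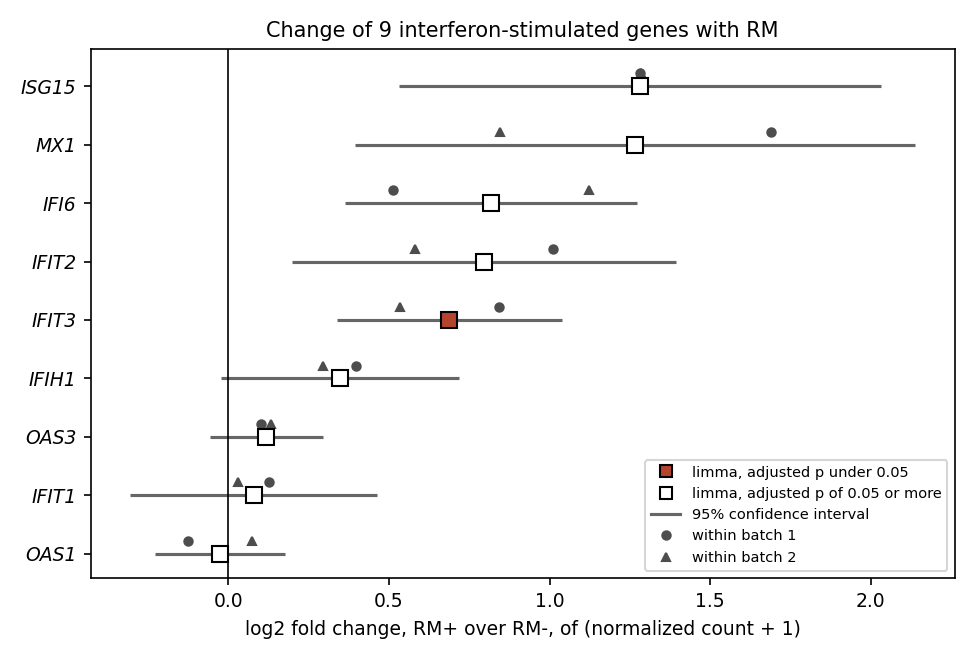
Log2 fold change, RM+ over RM-, of log2(normalised count + 1) for the 9 genes (squares), with 95% confidence intervals from limma as lines; the red square is the gene called at an adjusted p under 0.05. Circles and triangles are the differences within batch 1 and batch 2; both are above 0 for 8 genes, and for OAS1 they lie on either side of 0 (for ISG15 the symbols coincide).

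The OAS proteins are switched on by double-stranded RNA and make short 2'-5'-linked oligoadenylates that set off the decay of RNA. OAS1 (chr12:112905856-112933219) had 886 and 908 normalised counts in RM+ cells, against 965.5 and 862 in RM- cells, and it was the member whose groups overlapped. Its log2 fold change was -0.02 (SE 0.10, 95% confidence interval -0.23 to 0.18, limma adjusted p = 0.951). The sign turned to 0.06 without RM- replicate 1. OAS3 (chr12:112938051-112976460) had 2015 and 2080 normalised counts in RM+ cells, against 1877 and 1895 in RM- cells. The groups of OAS3 did not overlap, and its log2 fold change was 0.12 (SE 0.08, 95% confidence interval -0.06 to 0.29, limma adjusted p = 0.577). Both intervals stay well below a log2 fold change of 1. A lncRNA on the opposite strand, ENSG00000257452, overlaps OAS1 and OAS3 and had 118 and 167 normalised counts in RM+ cells and 130.1 and 155 in RM- cells.

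IFIH1, known as MDA5, is a cytosolic sensor of long double-stranded RNA and 1 of several sensors that can start interferon production. It lies at chr2:162267074-162318684. IFIH1 had 141 and 136 normalised counts in RM+ cells, against 106.9 and 110.9 in RM- cells, and the groups did not overlap. The log2 fold change was 0.35 (SE 0.18, 95% confidence interval -0.02 to 0.72), with 0.40 in batch 1 and 0.30 in batch 2. It did not pass in limma (adjusted p = 0.388) or with the replicate block (adjusted p = 0.243).

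Per kilobase of exon in GENCODE 29, the members spanned a wide range of levels. The length merged the exons of all annotated transcripts of a gene. Lengths of the transcripts in these cells were not measured, so the order below depends on this choice. In the RM+ group the order was OAS3 (248 normalised counts per kilobase), OAS1 (181), IFI6 (138), IFIT3 (86.9), ISG15 (40.9), IFIH1 (27.2), IFIT1 (25.3), IFIT2 (19.01) and MX1 (3.47). In the RM- group it was OAS3 (229), OAS1 (185), IFI6 (78.0), IFIT3 (54.3), IFIT1 (23.9), IFIH1 (21.3), ISG15 (16.2), IFIT2 (11.2) and MX1 (1.42). No neighbours in either order overlapped in their 2 samples, although ISG15 and IFIT2 came close in RM- cells, at 15.2 per kilobase for the lower ISG15 sample and 14.2 for the higher IFIT2 sample. The orders differed in the places of ISG15 and IFIT1, with ISG15 at rank 5 in RM+ cells and at rank 7 in RM- cells, and IFIT1 at rank 7 in RM+ cells and at rank 5 in RM- cells.

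The other genes of the interferon pathway were taken from 9 lists by role, 100 genes in all, of which 89 were in the table and 73 passed the filter. Of the 73, 7 were called higher and 1 lower in limma, where 1.46% of all tested genes were called higher and 0.794% lower. The same shares apply to the limma counts of the single lists below. A log2 fold change above 0 was found for 52 (71.2%), against 49.3% of all tested genes, and the median was 0.10. With the replicate block 15 were called higher and 5 lower, where 5.1% of all tested genes were called higher and 4.63% lower. DESeq2 called 3 of the 73 higher, and of the 7 it did not call NMI, IFI16, HERC6 and GBP3. For some of the 73 with low counts DESeq2 gave no adjusted p.

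At the top of the pathway, the ligand IFNE, an epithelial type I interferon, had 6.10 and 12.1 normalised counts in RM+ cells, against 18.2 and 16.3 in RM- cells (limma, adjusted p = 0.432). IFNA1 and IFNA2, type I interferons made on virus infection, had 0 to 2.02 normalised counts in all 4 samples and were not tested. The 6 other listed ligands were not found by name in the table. None of the 6 receptor chains was called by limma or edgeR. In limma 1 of the 6, IFNAR1, had an unadjusted p under 0.05 with a higher level, a rule that 7.68% of all tested genes met. IFNAR1, a chain of the type I receptor, had 1329 and 1440 normalised counts in RM+ cells, against 1149 and 1243 in RM- cells (limma, adjusted p = 0.287). For its partner IFNAR2 the groups overlapped, with 273 and 235 in RM+ cells and 201 and 239 in RM- cells.

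Among 13 kinases, STAT proteins and IRF factors, 1 was called. NMI, which binds STAT proteins, had 420 and 455 normalised counts in RM+ cells, against 307 and 301 in RM- cells, and rose by 0.52 on the log2 scale (SE 0.12, limma adjusted p = 0.0269). The median of the 13 was 0.03. Among 10 tested sensors and adaptors, 2 were called, and both belong to the response to DNA. TLR3, a sensor of RNA, had a log2 fold change of 0.67 (limma, adjusted p = 0.1825). CGAS, a sensor of DNA, had 0.40 (limma, adjusted p = 0.337). TLR3 and CGAS are named after their values were seen, and a difference between DNA and RNA sensors was not tested. STING1, the adaptor that carries the signal of cyclic GMP-AMP, had 130.1 and 118 normalised counts in RM+ cells, against 57.5 and 48.8 in RM- cells. STING1 rose by 1.21 on the log2 scale (SE 0.21, limma adjusted p = 0.00527). IFI16, a nuclear DNA sensor, had 223.5 and 201 normalised counts in RM+ cells, against 107 and 140.5 in RM- cells, and rose by 0.78 (SE 0.17, limma adjusted p = 0.0230).

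On the list of genes tied to ISG15 attachment or removal, 1 of 5 tested was called, and the ligase HERC5 was not (limma, adjusted p = 0.586). HERC6, a relative of the ISG15 ligase HERC5, had 250 and 218 normalised counts in RM+ cells, against 139 and 164 in RM- cells. HERC6 rose by 0.62 on the log2 scale (SE 0.16, limma adjusted p = 0.0464), and the call was lost in edgeR (adjusted p = 0.0694). The 5 genes had a median of 0.21. EIF2AK2, the kinase PKR, which is also switched on by double-stranded RNA, had 2509 and 2726 normalised counts in RM+ cells, against 2317 and 2441 in RM- cells (log2 fold change 0.14, limma adjusted p = 0.506). OAS2 and OASL stayed under the filter.

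The list of IFIT, IFITM and MX relatives held 4 tested genes, IFIT5 and the 3 genes IFITM1, IFITM2 and IFITM3, a separate family of membrane proteins. IFIT5 had a log2 fold change of 0.04, and those of the IFITM genes were negative. None of the 4 was called by limma or edgeR, while 1, IFITM2, had an unadjusted p under 0.05 and was called lower with the replicate block. Over all 17632 tested genes, 1199 had such a p in the lower direction in limma, and 4.63% were called lower with the block. IFITM2, which hinders virus entry at the endosome, had 296 and 306 normalised counts in RM+ cells, against 364 and 413 in RM- cells (log2 fold change -0.37, limma adjusted p = 0.161, and 0.0224 with the replicate block). IFITM3, with a like role, had 93.5 and 119 in RM+ cells, against 133 and 137 in RM- cells (log2 fold change -0.35, limma adjusted p = 0.415). MX2, the relative of MX1, had 0 to 2.02 normalised counts and was not tested.

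The list of other effectors held 29 tested genes, of which 3 were called higher and 1 lower, with a median of 0.25. PARP12, a mono-ADP-ribosyltransferase, had 329 and 324 normalised counts in RM+ cells, against 213 and 207 in RM- cells, and rose by 0.63 on the log2 scale (SE 0.13, limma adjusted p = 0.0153). GBP3, a guanylate-binding protein, had 103 and 117 in RM+ cells, against 56.5 and 49.7 in RM- cells, and rose by 1.03 (SE 0.22, limma adjusted p = 0.0173). LGALS3BP, a secreted glycoprotein, had 4172 and 4249 in RM+ cells, against 3261 and 3107 in RM- cells, and rose by 0.40 (SE 0.08, limma adjusted p = 0.0143). The gene called lower was ISG20, an exonuclease that degrades RNA, with 82.3 and 90.9 normalised counts in RM+ cells, against 154 and 172 in RM- cells. ISG20 fell by 0.91 on the log2 scale (SE 0.18, limma adjusted p = 0.0129). Several well known effectors were near 0 in both groups. RSAD2 (viperin), IFI44L and BST2 (tetherin), named after their values were seen, had at most 3.03 normalised counts in any sample.

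All 3 tested genes on the list of feedback inhibitors had a negative log2 fold change, as did 8932 of all 17632 tested genes. The median of the 3 was -0.26. None of the 3 was called by limma or edgeR, while 2 had an unadjusted p under 0.05 and were called lower with the replicate block. Of all tested genes, 1199 had such a p in the lower direction in limma, and 4.63% were called lower with the block. SOCS3, which blocks JAK kinases, had 385 and 309 normalised counts in RM+ cells, against 409.6 and 449 in RM- cells (log2 fold change -0.31, limma adjusted p = 0.259, and 0.0474 with the replicate block). PTPN2, a phosphatase of JAK and STAT proteins, had 600.5 and 553 in RM+ cells, against 705 and 679.7 in RM- cells (log2 fold change -0.26, limma adjusted p = 0.225, and 0.0468 with the replicate block). USP18, which also limits interferon signalling, was counted with the ISG15 genes and is named after its values were seen. It had 275 and 247 normalised counts in RM+ cells, against 227 and 225 in RM- cells (log2 fold change 0.21, limma adjusted p = 0.539).

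With each sample left out in turn, all of these 8 pathway genes kept their direction in limma. The log2 fold change was 1.095 to 1.329 for STING1, 0.615 to 0.653 for PARP12 and 0.940 to 1.129 for GBP3. It was 0.589 to 0.980 for IFI16, 0.503 to 0.742 for HERC6 and 0.464 to 0.582 for NMI. For LGALS3BP it was 0.369 to 0.438, and for ISG20 -0.984 to -0.828. The calls of GBP3, IFI16, HERC6, NMI, LGALS3BP and ISG20 were each lost without 1 or more of the samples. A call kept in these fits is not independent support, since their spread is shared by the whole table.

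**Figure D4:**
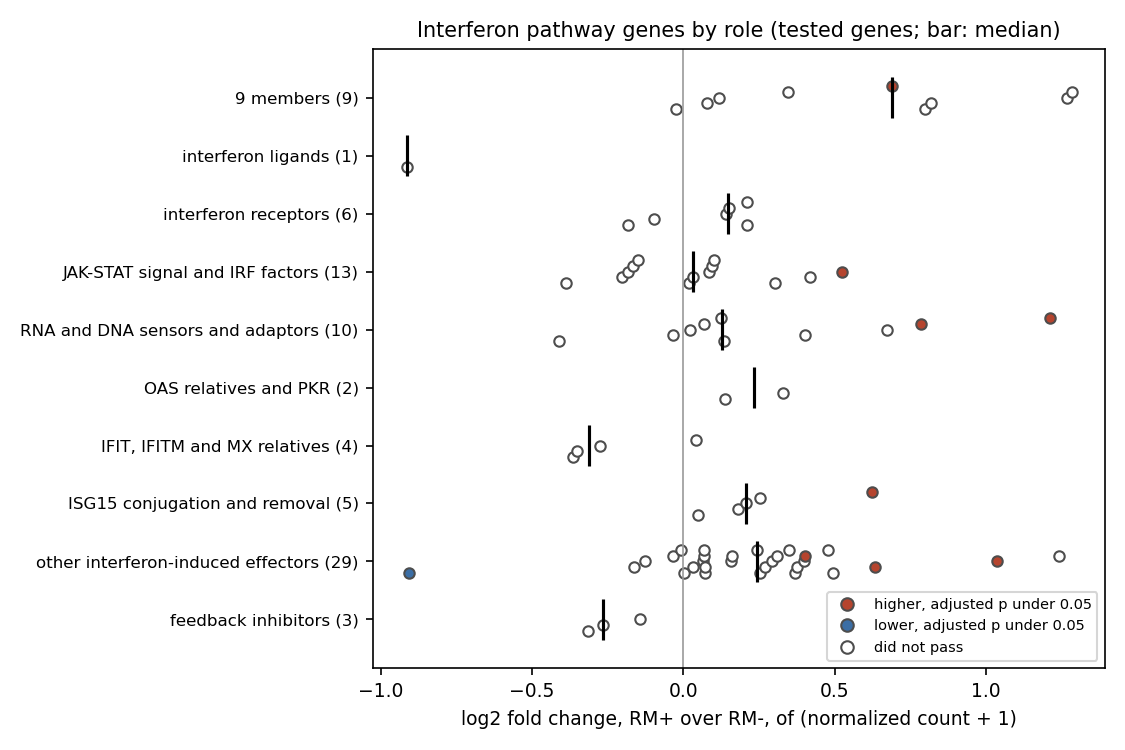
Log2 fold change, RM+ over RM-, of log2(normalised count + 1) for the 9 interferon-stimulated genes and the 73 other pathway genes tested, in rows by role with the number of genes in brackets. Red and blue points passed an adjusted p under 0.05 in limma as higher or lower, white points did not pass, and the black bars are medians, from -0.91 for the single ligand to 0.69 for the 9 genes.

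Over the 4 samples, the mean profile of the 9 members on the log2 scale, centred on its own mean, was 0.28 and 0.32 in RM+ cells and -0.37 and -0.22 in RM- cells. Among 13699 other tested genes with a mean of at least 50 normalised counts, the 5 with the smallest Euclidean distance from that profile were ENSG00000285864 (0.0476), MDM2 (0.0484), COL4A2-AS1 (0.0564), NIPAL4 (0.0578) and IL6R (0.0596). MDM2, the ubiquitin ligase of p53, had 2339 and 2491 normalised counts in RM+ cells, against 1563 and 1704 in RM- cells. IL6R, a chain of the interleukin-6 receptor, had 749.9 and 737 in RM+ cells, against 469 and 531.5 in RM- cells. With 4 samples in 2 groups, any gene that differs between the groups to a like degree has a like profile.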

How the data were processed

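RNA was measured in 4 samples of A549 cells, grouped by the treatment in the labels. Alignment and counting were done by the authors, whose table lists 30843 genes. Per the submitters' processing notes, the tools included HISAT2 2.1.0, featureCounts 1.6.3, Trimmomatic 0.38, DESeq2 1.24.0 and FastQC 0.11.7, with the build GRCh38. Which annotation release served, and whether strand was used in counting, was not given in the sources used here. The deposited signal of a gene in a sample is its read count over a size factor fixed for the sample. Columns of the authors' own comparison (mean, fold change, its error and p-values) were not used. The lowest non-zero value of a column was taken as 1 read, and all values of the column were divided by it to recover reads, of which 100% were whole within 1e-06.

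The main test was limma-trend (limma 3.58.1, R 4.3.3), two-sided, on log2(normalised count + 1), with a filter of at least 10 normalised counts in at least 2 samples and Benjamini-Hochberg adjustment over all tested genes. Fold changes on this scale understate those of low genes. Alternatives were edgeR 4.0.16 (quasi-likelihood, TMM) and DESeq2 1.42.0 on the recovered reads, TMM scaling, other filters and pseudocounts, each sample left out, and the replicate block. The scripts were tested on simulated data. The batch in the labels pairs the samples. Deviations of same-numbered samples from their group means had a correlation of 0.168 over 17632 genes (0.314 over 10289 genes with a mean over 200), across genes, which are not independent. Replicates differed by more than sampling noise (chi-square per gene 11.5 in RM+ and 9.81 in RM-). The block leaves 1 residual degree of freedom and an infinite prior, so that its adjusted p-values use 1 spread shared by the whole table. Where a sample was omitted, the remaining sample of its group was taken to vary as the other group does. Those fits also leave 1 residual degree of freedom. Their prior was infinite without either RM+ sample, 191 without RM- replicate 1 and 59.4 without RM- replicate 2, against 14.8 in the main fit. Their adjusted p-values thus rest mostly on a spread shared by the whole table, and calls kept or gained there are not independent support.

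The members and lists were chosen with earlier results of these data known. Genes named are the members, pathway genes called, the 2 with the smallest p in lists with no call, the 5 of most similar profile and genes that overlap a member. Results for some of them are not reported here. Overlapping lncRNAs and pseudogenes at or below 8.13 normalised counts, MX1-AS1 among them, were not described further. Gene models for lengths and exon overlap came from GENCODE 29, and promoters from RefSeq (GRCh38.p14).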

Additional observations from a re-analysis of the deposited data

How the results depend on the processing

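The median log2 fold change of the 9 interferon-stimulated genes stayed above 0 in all the alternatives, at 0.518 with at least 10 normalised counts required in every sample (which drops MX1 and leaves 8 genes), 0.672 in edgeR, and 0.401 to 0.738 with each sample left out (lowest without RM- replicate 1), against 0.689. The number of them called higher, 1 in limma, was 5 with the replicate block, 2 with the stricter filter, 0 to 2 with each sample left out (0 without RM+ replicate 2), and 0 in edgeR, 0 with TMM scaling in limma, 0 with no filter and 0 in DESeq2. DESeq2 gave no adjusted p for ISG15, IFIT2 and MX1, so these could not be called there. An unadjusted p under 0.05 was found for 5 of the 9 in edgeR, with TMM scaling and with no filter, and for 3 in DESeq2. Of all 17632 tested genes, 2603 had such a p in edgeR, 2617 with TMM scaling and 1535 in DESeq2. With no filter it was 2911 of 30843. The stricter filter called 282 of 16347 genes higher. Across the table, 258 genes were higher and 140 lower in limma, against 900 and 817 with the replicate block. With no filter, 0 were higher and 0 lower (2911 at an unadjusted p under 0.05), a fit over 30843 genes in which the prior falls to 3.05 degrees of freedom. With each sample left out the counts were 224 to 373 higher and 130 to 285 lower, with 285 lower without RM+ replicate 1 and 249 without RM- replicate 1. The 7 pathway genes higher and 1 lower in limma became 15 and 5 with the replicate block, 0 and 0 with no filter (26 at an unadjusted p under 0.05) and 3 higher in DESeq2, and the count lower was 0 to 1 with each sample left out. With each sample left out, OAS1 ran from -0.106 to 0.057 (above 0 without RM- replicate 1), against -0.02, and ENSG00000257452 from -0.266 to 0.229, against -0.02, with a positive value without RM+ replicate 1 (0.229) and without RM- replicate 2 (0.106). For the 33 named genes under the alternatives, 348 values kept their direction with no gain or loss of a call. Of the rest, 30 lost the call, 13 gained it and 3 changed sign. The 348 include genes without an adjusted p in DESeq2, which could not be called there, namely ISG15, IFIT2, MX1, IFNE and ENSG00000285864. Beyond the alternatives' own construction, the cause of these changes was not tested. Depth limits the lowest members, since ISG15 and MX1 rest on 9 to 40 reads per sample.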
